A study of Mus musculus with 12 samples.

Results

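The genes described here are 10 regulators of inflammatory transcription in cultured mouse mammary fibroblasts: the NF-kappa-B subunit genes Nfkb1, Nfkb2, Rela and Relb, the inhibitor and feedback genes Nfkbia, Nfkbie, Nfkbiz, Tnfaip3 and Bcl3, and Cebpb, which encodes C/EBP beta. They were taken by gene symbol, and all 10 were found among the 55487 genes of the table. All 10 passed the filter on low values that left 13280 genes for testing. Bcl3 reached 1 CPM (counts per 1e+06 reads assigned to genes) in 5 of 12 libraries, all from treated cells, so a treated group let it through the filter. Nfkb2 reached 1 CPM in 9 libraries, Relb and Nfkbie in 10, and the other 6 genes in 12.

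RNA was sequenced from a primary mammary fibroblast line, which came from the fat pad of 1 B6 mouse, in 4 groups of 3 libraries. Doxorubicin, a drug that breaks DNA, was given at 100 nM for 24 h and RNA was taken on day 7, and its control was a water vehicle taken on day 7. Hydrogen peroxide, an oxidant, was given at 750 uM in 3 exposures of 2 h, with 48 h allowed for recovery, and RNA was taken on day 6, as was that of its own water vehicle. The series describes both treatments as inducers of senescence. All groups share a single line from a single animal, with no engineered allele, and both vehicle groups were passaged routinely, so treatment and passaging cannot be told apart. Whether the 3 libraries of a group came from separate cultures is not stated, so p-values measure the spread between libraries, which may be technical. In bulk RNA, a change in the share of cells that express a gene and a change in RNA per cell cannot be told apart.

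NF-kappa-B is a family of dimeric transcription factors that rest in the cytoplasm, bound by inhibitors of the IkB family. Signals from cytokine receptors, Toll-like receptors or DNA damage activate IkB kinases, which mark the inhibitor for destruction and free the dimer to enter the nucleus, while a slower non-canonical route matures the Nfkb2 product and releases RelB. Several inhibitor genes are themselves NF-kappa-B targets and form negative feedback loops. C/EBP beta is a leucine zipper factor known to act beside NF-kappa-B on cytokine genes, and both factors are known for their part in the secretory phenotype of senescent fibroblasts. Much of this regulation acts on proteins, which RNA levels do not measure.

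Estimated depth was 17.3 to 37.6 M (1e+06) reads per library, and 3 reads corresponded to 0.0798 to 0.173 CPM, a floor that covers counting error only. All 10 fibroblast markers were tested, and their summed level was 13573 to 18126 CPM in doxorubicin libraries, 8598 to 9463 in their vehicle, 12304 to 13870 in peroxide libraries and 7948 to 9555 in their vehicle. Of 12 leukocyte markers, 4 were tested and 6 averaged under 0.1 CPM, and the summed level was 30.9 to 36.0 CPM with doxorubicin against 15.5 to 22.5 in its vehicle, and 27.1 to 30.2 CPM with peroxide against 20.5 to 21.8 in its vehicle. Csf1r was the most abundant of them, with a mean of 11.0 CPM, but the tested markers did not move together. At an adjusted p under 0.05 (limma), 3 rose and 1 fell with doxorubicin. With peroxide 2 rose and 1 fell, the last being Csf1r, at 9.05 CPM against 13.8 in its vehicle. Lyz2 had 13.3 CPM with peroxide against 1.81 in its vehicle. Of 10 epithelial markers 2 were tested, led by Krt19. The sum was 73.2 to 84.6 CPM with doxorubicin against 126 to 188 in its vehicle, and 22.9 to 62.8 CPM with peroxide against 170 to 183 in its vehicle. Krt19 averaged 113 CPM over the 12 libraries, so the epithelial sum mostly follows that gene. Its log2 fold change was -1.08 with doxorubicin and -2.31 with peroxide (limma, adjusted p = 0.0162 and 0.000127). Esr1, the other tested marker, rose with peroxide, at 4.82 CPM against 1.72 in its vehicle (log2 fold change 1.10, adjusted p = 6.00e-06). The Esr1 difference with doxorubicin was 0.0087 (adjusted p = 0.950). Of 8 endothelial markers 1 was tested (Tek), and the sum was 34.5 to 45.2 CPM with doxorubicin against 12.5 to 16.4 in its vehicle, and 22.9 to 28.3 CPM with peroxide against 5.67 to 9.54 in its vehicle. Of 8 adipocyte markers 4 were tested, led by Lpl, and the sum was 1420 to 1506 CPM with doxorubicin against 2291 to 2489 in its vehicle, and 2120 to 2222 CPM with peroxide against 1069 to 1254 in its vehicle. Lpl averaged 1693 CPM over the 12 libraries, so the adipocyte sum mostly follows that gene. At an adjusted p under 0.05 (limma), 1 of the 4 rose and 3 fell with doxorubicin. With peroxide 2 rose and 2 fell, Fabp4 among the latter, at 27.5 CPM against 50.6 in its vehicle. The part of these markers in the results was not tested. Summed proliferation markers were 319 to 343 CPM in doxorubicin libraries against 940 to 970 in their vehicle, and 514 to 557 CPM in peroxide libraries against 1399 to 1497 in their vehicle. Doxorubicin replicate 1, doxorubicin vehicle replicate 3 and peroxide replicate 2 stood apart from their groups on the second principal component, which held 23.7% of the variance.

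The start regions of these genes are shown because kB sites near the start are a known route by which NF-kappa-B feeds back on its own inhibitors. RefSeq promoter windows on GRCm38.p6, 250 bases before to 50 bases after the start, were available for 7 of the 10 genes. Windows for Nfkb1, Relb and Nfkbiz were not used here. A match to the kB decamer consensus, searched on both strands, was present in 7 of the 10 windows of these genes, since Nfkb2 has 3 windows and Tnfaip3 has 2, and in 8.49% of all 32544 windows of that length. The 7 windows belong to 5 genes, Nfkb2, Nfkbia, Nfkbie, Tnfaip3 and Bcl3, and windows of 1 gene are not independent. TTGCNNAA, a core recognised by C/EBP factors, matched on either strand in 0 of the 10 windows and in 10.8% of all windows. Capitals mark the kB matches below, written from 5′ to 3′ on the strand of the gene. The windows are Nfkbia at chr12:55492598-55492897 on the minus strand, Nfkbie at chr17:45555450-45555749 on the plus strand, Tnfaip3 (start 1) at chr10:19015361-19015660 on the minus strand, Bcl3 at chr7:19822706-19823005 on the minus strand, and Nfkb2 (start 1) at chr19:46304487-46304786 on the plus strand.
Nfkbia: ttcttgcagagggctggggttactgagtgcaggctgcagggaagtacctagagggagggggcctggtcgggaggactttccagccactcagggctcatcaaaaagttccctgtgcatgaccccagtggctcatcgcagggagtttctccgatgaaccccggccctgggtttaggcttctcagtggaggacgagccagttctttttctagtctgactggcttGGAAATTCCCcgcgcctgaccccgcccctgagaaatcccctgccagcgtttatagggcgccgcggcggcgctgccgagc
Nfkbie: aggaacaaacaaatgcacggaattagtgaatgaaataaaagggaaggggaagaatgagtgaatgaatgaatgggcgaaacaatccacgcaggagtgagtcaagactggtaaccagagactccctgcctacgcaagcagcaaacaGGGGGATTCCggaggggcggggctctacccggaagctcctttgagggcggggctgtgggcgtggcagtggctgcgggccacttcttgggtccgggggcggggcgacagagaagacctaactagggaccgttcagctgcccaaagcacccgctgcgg
Tnfaip3: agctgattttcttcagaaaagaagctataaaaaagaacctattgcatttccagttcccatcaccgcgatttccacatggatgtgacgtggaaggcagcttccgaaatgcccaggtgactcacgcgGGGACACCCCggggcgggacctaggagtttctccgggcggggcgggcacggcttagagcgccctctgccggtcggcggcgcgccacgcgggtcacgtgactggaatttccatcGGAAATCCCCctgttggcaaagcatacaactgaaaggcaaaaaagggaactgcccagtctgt
Bcl3: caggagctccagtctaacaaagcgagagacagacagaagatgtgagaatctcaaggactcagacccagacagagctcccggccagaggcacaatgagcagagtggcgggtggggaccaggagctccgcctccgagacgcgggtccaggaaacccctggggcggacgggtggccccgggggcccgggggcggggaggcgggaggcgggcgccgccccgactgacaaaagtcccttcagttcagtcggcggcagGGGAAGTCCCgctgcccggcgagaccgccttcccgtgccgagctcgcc
Nfkb2: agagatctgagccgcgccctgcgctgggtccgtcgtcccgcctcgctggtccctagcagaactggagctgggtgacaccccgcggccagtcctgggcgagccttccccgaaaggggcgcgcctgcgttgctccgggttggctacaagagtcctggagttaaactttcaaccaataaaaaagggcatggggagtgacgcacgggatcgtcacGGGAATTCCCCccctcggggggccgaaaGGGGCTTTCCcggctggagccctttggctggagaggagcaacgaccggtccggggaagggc
A match describes letters and not binding.

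**Figure D1:**
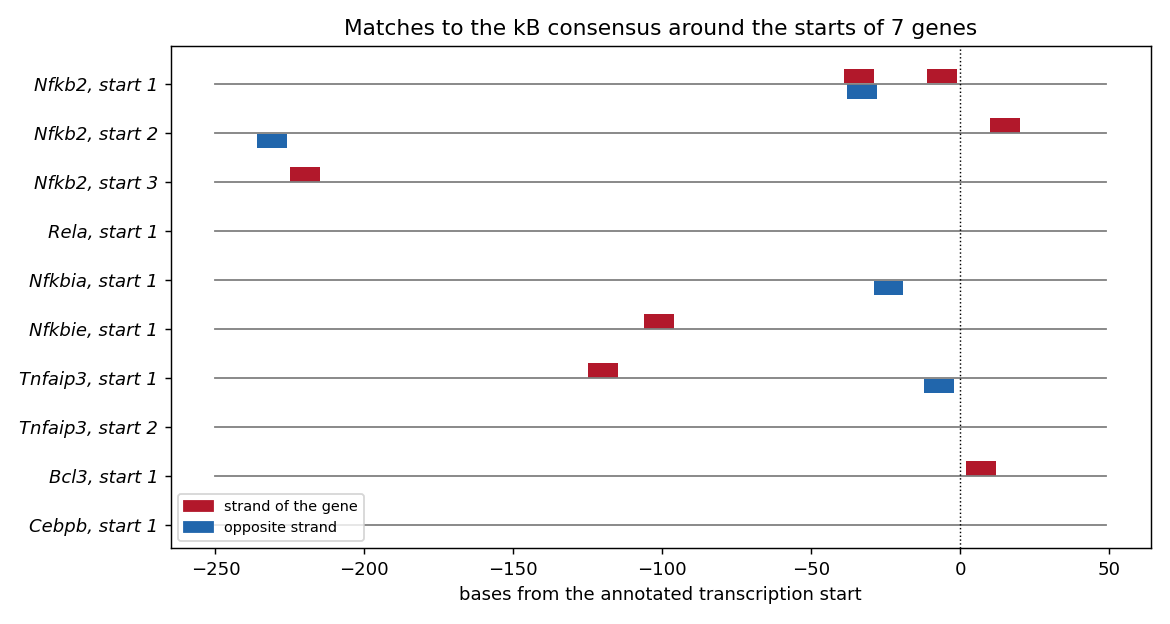
Matches to the kB consensus in the promoter windows of 7 genes, as distance in bases from the annotated transcription start. Red blocks lie on the strand of the gene and blue blocks on the opposite strand; the Rela and Cebpb windows hold 0 matches, and those of Nfkbia, Nfkbie, Tnfaip3 (start 1), Bcl3 and Nfkb2 hold 1 or more.

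In the 5 genes with a match, the position differed. The Nfkbia match began 29 bases before the start on the opposite strand, and the Nfkbie match began 106 bases before it on the gene's own strand. Tnfaip3 had matches at 125 and 12 bases before start 1, Bcl3 had a match 2 bases after its start, and Nfkb2 had matches in the windows of all 3 annotated starts, of which those of starts 2 and 3 overlap and share 1 site.

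Most of these genes passed the test for a rise with doxorubicin, and fewer of them did with peroxide. A difference in such counts is not a test between the treatments. The effects themselves differed in 4 of the 10 genes, 2 higher and 2 lower with doxorubicin, as described below. The log2 fold changes with doxorubicin were highest for Nfkbia, Nfkbie and Bcl3 (1.54, 1.19 and 1.14), an order that depends on the pseudocount, since with 0.1 in place of 1 they were 1.67, 1.86 and 1.93. With doxorubicin, 7 of 10 rose and 0 fell at an adjusted p under 0.05 (limma with Benjamini-Hochberg adjustment over all tested genes), where 22.1% of all tested genes rose and 27.8% fell. With peroxide 4 of 10 rose and 0 fell, against 27.3% and 23.4% of all tested genes. Rela, Relb and Bcl3 rose with both treatments, Bcl3 having passed the filter through treated libraries. The median log2 fold change of the 10 genes on the log2(CPM + 1) scale was 0.69 with doxorubicin and 0.33 with peroxide, beside -0.03 and -0.01 over all tested genes. In 8 of the 10 genes all doxorubicin libraries lay above all vehicle libraries (26.1% of tested genes), and in 1, Cebpb, all lay below (33.6%). With peroxide all treated libraries lay above in 5 genes (30.7%) and below in 0 (29.3%).

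**Figure D2:**
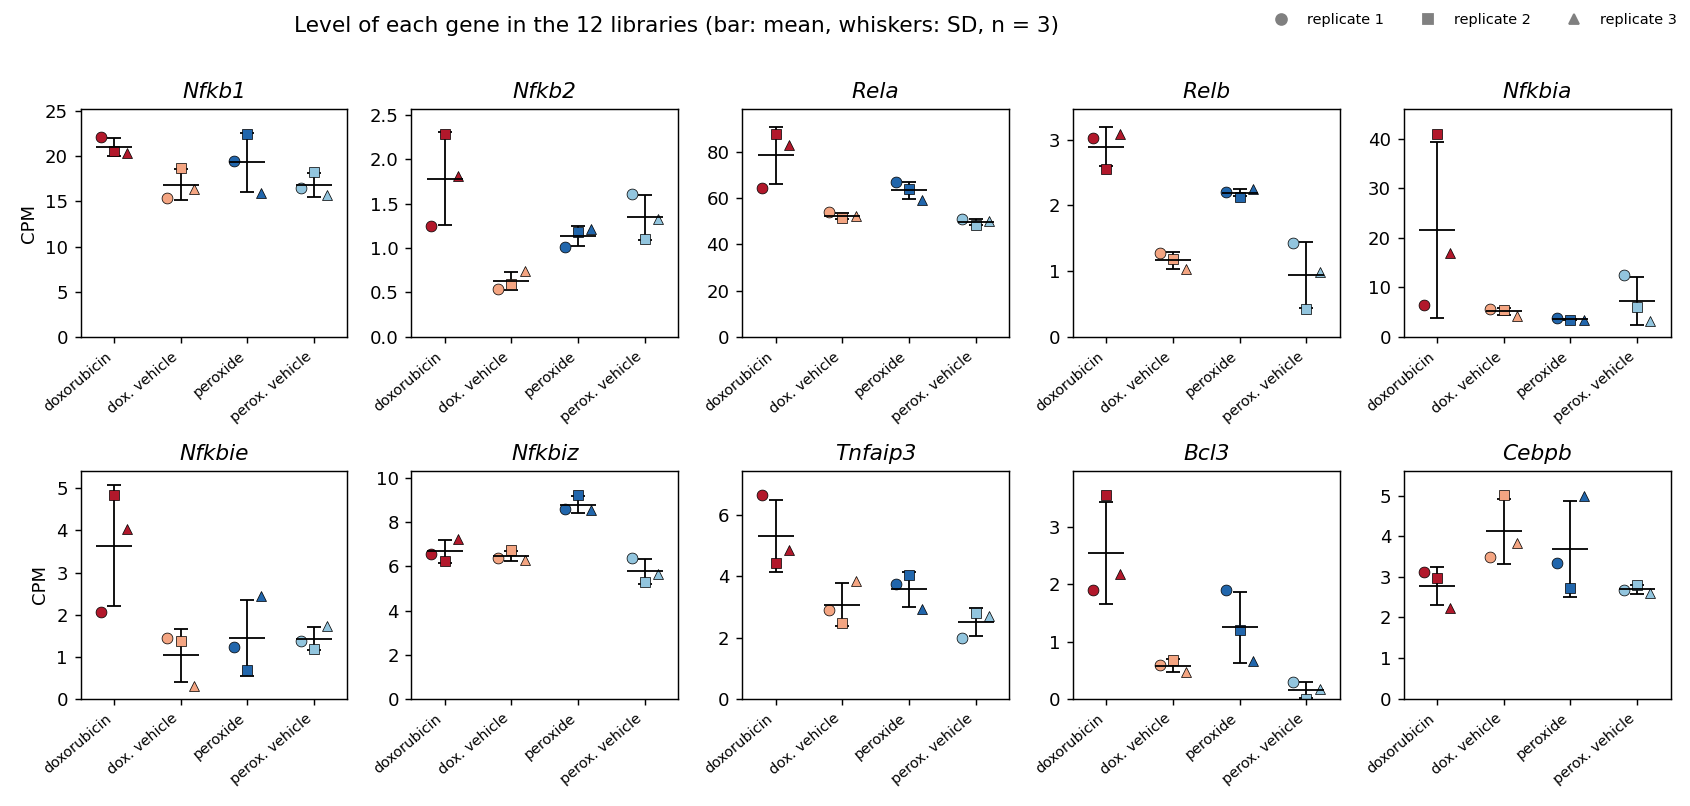
Level in CPM (linear axis from 0) of each of the 10 genes in the 12 libraries, with the mean and SD of each group of 3. Nfkbia stands between 6.38 and 41.0 CPM in the doxorubicin libraries, the widest range in CPM of any group shown.

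Among the subunits, Rela, Relb and Nfkb2 rose with doxorubicin, and Nfkb1 did not pass the test. Rela, on chromosome 19 (5637483 to 5648130, plus strand, mm10), encodes p65, the main transactivating subunit. It had 64.5, 87.8 and 83.0 CPM with doxorubicin, against 53.8, 51.2 and 52.1 CPM in its vehicle. It had 66.8, 63.8 and 59.1 CPM with peroxide, against 50.8, 48.1 and 50.2 CPM in its vehicle. Neither treated group overlapped its vehicle, and the tightest values were those of the vehicles. The log2 fold change was 0.56 ± 0.10 (SE) with doxorubicin (adjusted p = 0.000964) and 0.34 ± 0.10 with peroxide (adjusted p = 0.0173), in limma on log2(CPM + 1). The doxorubicin value fell to 0.31 after correction for transcript GC content, and the peroxide value missed the threshold when peroxide replicate 1 or peroxide vehicle replicate 2 was left out (adjusted p = 0.0614 and 0.0572).

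Relb, on chromosome 7 (19606217 to 19629438, minus strand), encodes the transactivating partner of p52 in the non-canonical route. It had 3.03, 2.55 and 3.09 CPM with doxorubicin, against 1.28, 1.19 and 1.03 CPM in its vehicle. In peroxide cells it had 2.21, 2.13 and 2.24 CPM, against 1.42, 0.429 and 0.982 CPM in its vehicle. All 6 treated libraries lay above all 6 vehicle libraries. On the log2(CPM + 1) scale it rose by 0.84 ± 0.17 with doxorubicin (limma, adjusted p = 0.00155) and by 0.75 ± 0.17 with peroxide (adjusted p = 0.00309), and these changes differed by 0.10 (95% interval -0.42 to 0.61). Levels near 1 CPM are compressed by the pseudocount, and with a pseudocount of 0.1 the peroxide change was 1.26.

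Nfkb2, on chromosome 19 (46304320 to 46312385, plus strand), encodes the p100 precursor of p52, which also acts as an inhibitor. It had 1.25, 2.29 and 1.80 CPM with doxorubicin, against 0.543, 0.598 and 0.744 CPM in its vehicle, with no overlap. With peroxide it had 1.01, 1.18 and 1.21 CPM, against 1.61, 1.10 and 1.33 CPM in its vehicle, and these overlapped. It rose by 0.76 ± 0.15 on the log2 scale with doxorubicin (limma, adjusted p = 0.00131), and the peroxide difference was -0.13 ± 0.15 (adjusted p = 0.483). The vehicles themselves differed, with the day 7 vehicle lower than the day 6 vehicle by a log2 fold change of -0.52 (limma, adjusted p = 0.0208), so the day 7 baseline was the lowest of the 4 groups. With a pseudocount of 0.1 the doxorubicin change was 1.34. Exons of Nfkb2 overlap those of Psd on the opposite strand, which had 0 to 0.480 CPM, and the strand setting of the counting is not given in the sources used here.

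Nfkb1, on chromosome 3 (135584655 to 135691547, minus strand), encodes the p105 precursor of p50, the usual partner of p65. It had 22.1, 20.6 and 20.3 CPM with doxorubicin, against 15.4, 18.7 and 16.4 CPM in its vehicle. In peroxide cells it had 19.5, 22.5 and 15.9 CPM, against 16.5, 18.3 and 15.7 CPM in its vehicle. The doxorubicin libraries did not overlap their vehicle, but the log2 difference of 0.31 ± 0.12 had an adjusted p of 0.0605 in limma. The peroxide difference was 0.18 ± 0.12 (adjusted p = 0.258). The doxorubicin value passed the threshold under 8 of 25 alternatives, with adjusted p between 0.0177 and 0.177.

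**Figure D3:**
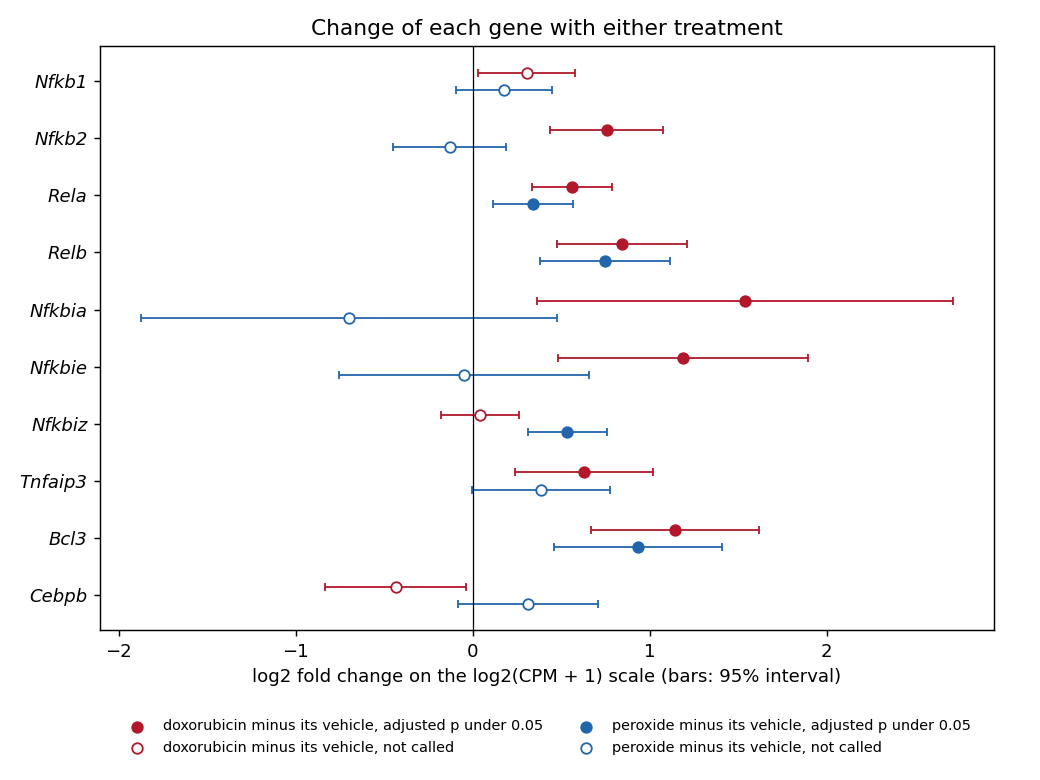
Log2 fold change on the log2(CPM + 1) scale of each gene, doxorubicin (red) and peroxide (blue) against their own vehicles, with 95% intervals from limma. Filled points have an adjusted p under 0.05: 7 genes with doxorubicin and 4 with peroxide, with the widest intervals for Nfkbia.

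Nfkbia and Nfkbie, which encode the cytoplasmic inhibitors IkB alpha and IkB epsilon, both rose after doxorubicin, and neither passed the test with peroxide. Nfkbia, on chromosome 12 (55489410 to 55492647, minus strand), had 6.38, 41.0 and 17.0 CPM with doxorubicin, against 5.67, 5.42 and 4.31 CPM in its vehicle. With peroxide it had 3.74, 3.43 and 3.41 CPM, against 12.5, 5.96 and 3.24 CPM in its vehicle. Doxorubicin replicate 1 lay close to the vehicle, replicates 2 and 3 lay well above it, and peroxide vehicle replicate 1 was the next highest library. The log2 fold change was 1.54 ± 0.53 with doxorubicin (limma, adjusted p = 0.0327) and -0.70 ± 0.53 with peroxide (adjusted p = 0.298). Without doxorubicin replicate 2 the change was 0.92 (adjusted p = 0.128). It also missed the threshold on leaving out doxorubicin replicate 3 (adjusted p = 0.0755) or any of the 3 vehicle libraries (0.0609, 0.0654 and 0.0869), with no filter on low values (0.0717) and in a fit of that experiment alone (0.0624).

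Within the doxorubicin group, the SD of Nfkbia on the log2(CPM + 1) scale was 1.25, larger than that of 99.4% of tested genes, whose median was 0.14. In the peroxide vehicle group it was 0.84, again larger than in 99.4% of genes, with a median of 0.12. The spread followed the second principal component. The scores there were 0.01, -39.9 and -29.5 for doxorubicin replicates 1 to 3, -33.6, -18.9 and -7.06 for the peroxide vehicle, and 16.8, 48.2 and 14.2 for peroxide. The part of this component in the Nfkbia difference was not tested. The 2 tested genes whose pattern over the 12 libraries was nearest to Nfkbia were Nop53, a ribosome assembly factor, and Ppp1r15a, a stress-induced phosphatase subunit, at root-mean-square differences of 0.20 and 0.24 after centring. Ppp1r15a had 25.5, 119 and 90.0 CPM with doxorubicin, against 29.8, 25.7 and 19.7 CPM in its vehicle, the same order of libraries as Nfkbia in both groups.

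Nfkbie, on chromosome 17 (45555703 to 45563169, plus strand), had 2.05, 4.84 and 4.03 CPM with doxorubicin, against 1.43, 1.37 and 0.308 CPM in its vehicle. With peroxide it had 1.22, 0.680 and 2.43 CPM, against 1.36, 1.19 and 1.73 CPM in its vehicle. The doxorubicin libraries all lay above their vehicle, with replicate 1 again the lowest, and the lowest vehicle value was that of replicate 3. The log2 fold change was 1.19 ± 0.32 with doxorubicin (limma, adjusted p = 0.00979), and the call held under all 24 alternatives run. It was -0.05 ± 0.32 with peroxide (adjusted p = 0.912). With a pseudocount of 0.1 the doxorubicin change was 1.86.

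Nfkbib, which encodes IkB beta and is not among the 10 genes, followed the same libraries. It had 2.79, 25.6 and 17.5 CPM with doxorubicin, against 3.50, 2.74 and 1.90 CPM in its vehicle, so replicate 1 lay inside the vehicle range. Its log2 fold change was 1.75 ± 0.61 (limma, adjusted p = 0.0331), and the call was lost under 8 of 25 alternatives, with adjusted p up to 0.136.

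**Figure D4:**
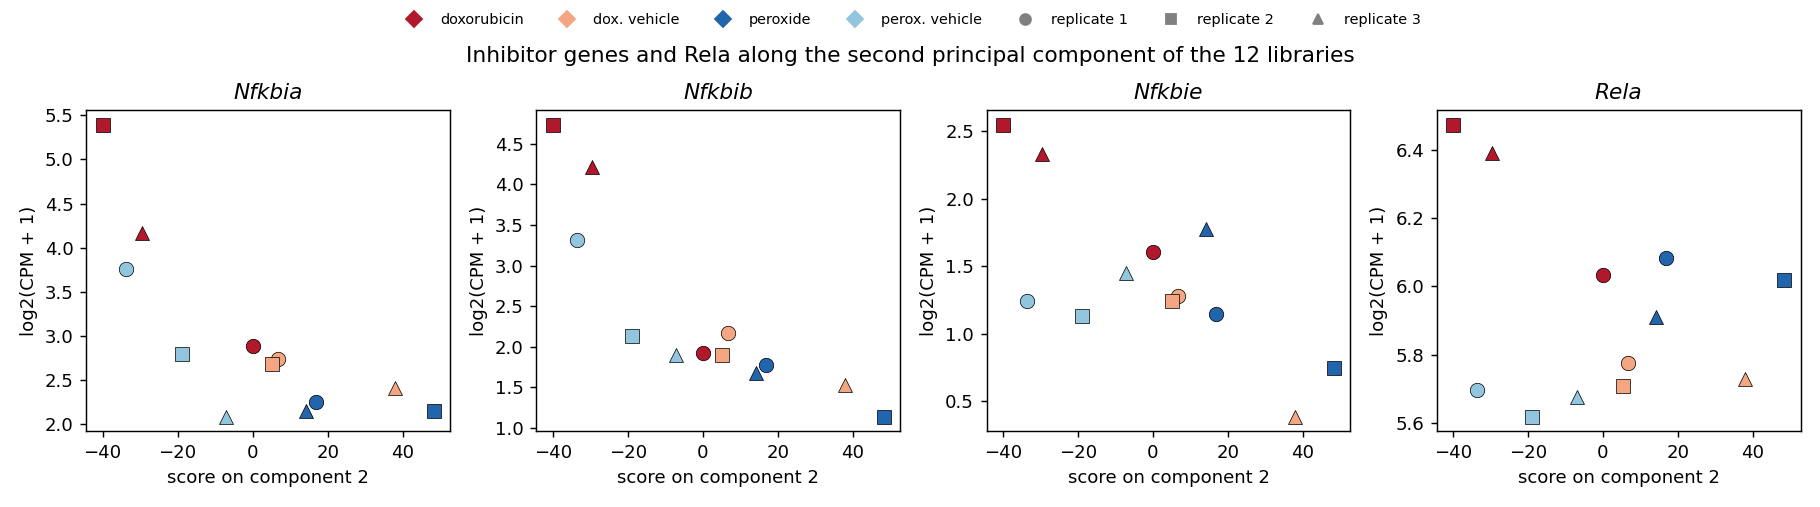
Level on the log2(CPM + 1) scale of 3 IkB genes and of Rela in the 12 libraries, against the score of each library on the second principal component. Nfkbia and Nfkbib are highest in the libraries at scores of -39.9, -33.6 and -29.5, 2 doxorubicin libraries and 1 peroxide vehicle library, whereas Rela in that vehicle library stays with the other vehicles.

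The nuclear IkB proteins act inside the nucleus on p50 and p52 dimers, and the genes of 2 of them are described here. Bcl3, on chromosome 7 (19808462 to 19822770, minus strand), had 1.91, 3.56 and 2.18 CPM with doxorubicin, against 0.592, 0.684 and 0.462 CPM in its vehicle. Its levels with peroxide were 1.89, 1.20 and 0.654 CPM, against 0.284, 0 and 0.173 CPM in its vehicle, where 0 to 5 reads were counted per library. Neither treated group overlapped its vehicle, and the order of the groups was doxorubicin, peroxide, day 7 vehicle and day 6 vehicle. The log2 fold change was 1.14 ± 0.22 with doxorubicin (limma, adjusted p = 0.00115) and 0.94 ± 0.22 with peroxide (adjusted p = 0.00384). The size depends on the pseudocount at these levels, and with 0.1 it was 1.93 with doxorubicin and 2.52 with peroxide. Both calls held in every alternative in which the gene was tested (24 with doxorubicin and 23 with peroxide). In a fit of the peroxide experiment alone Bcl3 failed the filter, as peroxide replicate 3 and the vehicle libraries lay under 1 CPM. Treated libraries let the gene through the filter, which favours a rise, so both calls are a description. Exons of Bcl3 overlap those of the antisense gene Gm16175, which was listed at 0 CPM in all 12 libraries.

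Nfkbiz, on chromosome 16 (55811375 to 55838899, minus strand), encodes IkB zeta, a nuclear cofactor of secondary inflammatory genes. It had 6.57, 6.25 and 7.26 CPM with doxorubicin, against 6.36, 6.75 and 6.31 CPM in its vehicle, which overlapped. Its levels with peroxide were 8.61, 9.24 and 8.55 CPM, against 6.37, 5.29 and 5.66 CPM in its vehicle, with no overlap. It rose by 0.54 ± 0.10 with peroxide (limma, adjusted p = 0.00104, called under all 25 alternatives run), and the doxorubicin difference was 0.04 ± 0.10 (adjusted p = 0.763, 95% interval -0.18 to 0.26), or -0.01 without doxorubicin replicate 3.

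Tnfaip3, on chromosome 10 (19000910 to 19015657, minus strand), encodes A20, a ubiquitin-editing enzyme that ends signalling from the TNF receptor. It had 6.66, 4.44 and 4.85 CPM with doxorubicin, against 2.91, 2.46 and 3.85 CPM in its vehicle. In the peroxide group it had 3.74, 4.05 and 2.94 CPM, against 1.99, 2.81 and 2.72 CPM in its vehicle. Neither treated group overlapped its vehicle. It rose by 0.63 ± 0.18 on the log2 scale with doxorubicin (limma, adjusted p = 0.0122), a call lost without doxorubicin vehicle replicate 2 (adjusted p = 0.0521). The peroxide difference of 0.39 ± 0.18 did not pass (adjusted p = 0.0918).

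Cebpb was the only one of the 10 genes with a negative difference after doxorubicin, and it did not pass the test in either treatment. On chromosome 2 (167688915 to 167690418, plus strand), it had 3.12, 2.98 and 2.24 CPM with doxorubicin, against 3.50, 5.01 and 3.85 CPM in its vehicle. In the peroxide group it had 3.34, 2.72 and 5.0 CPM, against 2.67, 2.81 and 2.60 CPM in its vehicle. All doxorubicin libraries lay below their vehicle, and the peroxide libraries overlapped theirs. The log2 difference was -0.44 ± 0.18 with doxorubicin (limma, adjusted p = 0.0651) and 0.31 ± 0.18 with peroxide (adjusted p = 0.170). The doxorubicin value passed the threshold under 5 of 24 alternatives. Exons of Cebpb overlap those of Tmem189 on the opposite strand, which had 6.82 to 11.2 CPM, so reads of the pair cannot be told apart if strand was not used. A list by C/EBP symbol or name held 5 other tested genes, Cebpa, Cebpd, Cebpg, Cebpz and Ddit3. Of these 1 rose and 3 fell with doxorubicin, and 2 rose and 2 fell with peroxide. Cebpz was included by its symbol only, and it was among those that fell with doxorubicin (log2 fold change -0.38, limma, adjusted p = 0.00557). Cebpg, which encodes a short family member that pairs with the others, fell by 1.15 on the log2 scale with doxorubicin and by 0.77 with peroxide (limma, adjusted p = 2.17e-07 and 4.64e-06). Cebpa, an activator known from fat and liver cells, had log2 fold changes of -0.44 with doxorubicin (adjusted p = 0.00796; -0.71 with the GC correction) and -1.08 with peroxide (adjusted p = 1.59e-05). Cebpd, an acute-phase activator, rose by 0.75 with doxorubicin (adjusted p = 0.0119) and by 0.57 with peroxide (adjusted p = 0.0413), or 1.15 and 0.99 with a pseudocount of 0.1, and the peroxide call was lost under 10 of 24 alternatives.

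The treatments were then compared through the difference of their effects, doxorubicin minus its vehicle less peroxide minus its vehicle. It passed the test in 4 of the 10 genes (2 higher and 2 lower), where 13.5% of tested genes were higher and 20.1% lower. For Nfkb2 the difference was 0.89 ± 0.21 on the log2 scale (limma, adjusted p = 0.00883) and was called in all 23 alternatives run. Nfkbia differed by 2.24 ± 0.76 (adjusted p = 0.0419), Nfkbiz by -0.50 ± 0.14 (adjusted p = 0.0224) and Cebpb by -0.75 ± 0.25 (adjusted p = 0.0435). Nfkbia and Cebpb each lost this call under 13 alternatives, of 24 and 23 run, with adjusted p up to 0.0963 and 0.118. Nfkbiz lost it under 3 of 24, the highest adjusted p being 0.0762. Nfkbie differed by 1.24 ± 0.45 without passing (adjusted p = 0.0553). For Rela, Relb, Nfkb1, Tnfaip3 and Bcl3 the differences were 0.10 to 0.25, with adjusted p between 0.255 and 0.776. The number of genes called was 6 without doxorubicin replicate 1 and 1 without peroxide vehicle replicate 2. It was 2 without any 1 of doxorubicin replicates 2 and 3, doxorubicin vehicle replicates 2 and 3, peroxide replicate 1 and peroxide vehicle replicate 1.

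Set directly against peroxide cells, doxorubicin cells had more Nfkbia (log2 fold change 1.97 ± 0.53, limma, adjusted p = 0.0211) and Bcl3 (0.67 ± 0.22, adjusted p = 0.0411) and less Nfkbiz (-0.35 ± 0.10, adjusted p = 0.0266), where 9.50% of tested genes were higher and 18.0% lower. The Bcl3 call was lost under 14 of 23 alternatives, with adjusted p up to 0.154, that of Nfkbiz under 7 of 24 (up to 0.111) and that of Nfkbia under 4 of 24 (up to 0.0701). The number passing changed between 0 and 7 over the alternatives, being 0 without doxorubicin replicate 2, 1 without doxorubicin replicate 3 or peroxide replicate 2, and 6 without doxorubicin replicate 1. Day of lysis differs between these groups and cannot be told apart from treatment. Between the vehicles, day 7 over day 6, Nfkb2 was the 1 gene called (lower), where 12.9% of tested genes were lower, and that call was lost without doxorubicin vehicle replicate 1 or 2 or peroxide vehicle replicate 1 (adjusted p = 0.0690, 0.0574 and 0.0855). Cebpb had 1.53 times the mean CPM in the day 7 vehicle (log2 difference 0.46 ± 0.18, adjusted p = 0.0793).

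Levels were set against the joined length of all annotated exons of a gene, which can exceed the length of a transcript. Rela was first in each of the 4 groups, with means of 16.2 to 25.5 CPM per kb. Nfkbia was second with doxorubicin at 13.3 CPM per kb and in both vehicles (3.19 on day 7 and 4.49 on day 6). In peroxide cells Nfkbia had 2.19 CPM per kb, below Cebpb at 2.45. Nfkbiz lay above Nfkb1 in peroxide cells (1.75 and 1.60 CPM per kb) and below it in the other 3 groups. Over the 12 libraries Nfkbie, Tnfaip3, Relb, Bcl3 and Nfkb2 averaged 0.620 to 0.267 CPM per kb. The nearest patterns to the other genes were, by the same measure as for Nfkbia, Rab5c and Rab31 for Rela (0.10 each), Tor1aip2 and Cblb for Relb (0.15 and 0.16), Myo7a and Smpdl3a for Bcl3 (0.17 and 0.20), and Slc38a10 and Plekho2 for Nfkbie (0.19 each).

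The rest of the pathway was described from lists by role, whose counts stand beside 22.1% of all tested genes that rose and 27.8% that fell with doxorubicin, and 27.3% and 23.4% with peroxide. Of 14 IkB kinase and related kinase genes, all tested, 1 rose and 2 fell with doxorubicin, and 3 rose and 3 fell with peroxide. Ikbkg, which encodes the scaffold NEMO, had 96.0, 89.6 and 94.3 CPM with doxorubicin, against 74.8, 78.7 and 86.8 CPM in its vehicle, a log2 fold change of 0.22 (limma, adjusted p = 0.0348) that was lost under 7 of 25 alternatives and was 0.36 with the GC correction. With peroxide Ikbkg rose by 0.46 (adjusted p = 0.000519). Ikbke, an inducible IkB-related kinase, rose by 0.89 with peroxide (adjusted p = 0.000246), and its doxorubicin difference of 0.33 did not pass (adjusted p = 0.0627). Tbk1, its relative, fell by 0.46 with doxorubicin and by 0.41 with peroxide (adjusted p = 0.000619 and 0.00124). Of 16 tested adaptors and ubiquitin ligases, 1 rose with doxorubicin and 0 fell, and 4 rose and 1 fell with peroxide. Rnf31, the catalytic subunit of the linear ubiquitin ligase, rose by 0.76 with doxorubicin (adjusted p = 0.00615), and its peroxide difference was -0.30 (adjusted p = 0.201). Birc3 and Birc2, ligases of the TNF receptor complex, rose by 0.58 and 0.57 with peroxide (adjusted p = 0.00709 and 0.00148), with differences of 0.0056 and 0.0073 with doxorubicin (adjusted p = 0.978 and 0.961).

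Of 17 tested negative regulators, 4 rose and 2 fell with doxorubicin, and 8 rose and 3 fell with peroxide. Commd1 was among those that fell with either treatment. Its log2 fold change was -0.65 with doxorubicin and -0.25 with peroxide (limma, adjusted p = 1.98e-05 and 0.0124). Nkiras1, which encodes a Ras-like protein that binds IkB, rose by 0.76 with doxorubicin and by 0.80 with peroxide (limma, adjusted p = 0.000143 and 9.02e-05). Irak3, a brake on Toll-like receptor signalling, rose by 0.45 with doxorubicin and by 1.05 with peroxide (adjusted p = 0.0116 and 4.18e-05). Tollip, an adaptor that restrains the same receptors, had 74.2, 145 and 132 CPM with doxorubicin, against 66.2, 67.3 and 41.7 CPM in its vehicle, and 44.0, 33.3 and 54.8 CPM with peroxide, against 119, 77.0 and 69.0 CPM in its vehicle. It rose by 0.97 with doxorubicin (adjusted p = 0.0189) and fell by 0.98 with peroxide (adjusted p = 0.0174). The doxorubicin call was lost without doxorubicin replicate 2 or 3 or vehicle replicate 3 (adjusted p = 0.0775, 0.0684 and 0.0782), and the peroxide call without peroxide replicate 2 or vehicle replicate 1 (adjusted p = 0.0617 and 0.0749). Its libraries rank as those of Nfkbia do within the doxorubicin and the peroxide vehicle groups.

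Of 13 tested receptors, 7 rose and 1 fell with doxorubicin, and 5 rose and 2 fell with peroxide. Tlr3, a sensor of double-stranded RNA, rose by 1.66 with doxorubicin and by 1.53 with peroxide (limma, adjusted p = 4.63e-06 and 7.72e-06). Tnfrsf12a, the receptor of the cytokine TWEAK, had 181, 275 and 266 CPM with doxorubicin, against 59.1, 71.0 and 9.59 CPM in its vehicle, and 51.5, 12.4 and 73.7 CPM with peroxide, against 284, 253 and 140 CPM in its vehicle. Its log2 fold change was 2.73 with doxorubicin (adjusted p = 0.00962) and -2.53 with peroxide (adjusted p = 0.0138), and its lowest values fell in the libraries with the highest component 2 scores. Of 14 ligand genes, 5 were tested: 4 rose and 1 fell with doxorubicin, and 2 rose and 1 fell with peroxide, with Il33 also tested through treated libraries (both vehicle means under 1 CPM). Those that rose with doxorubicin include Il1rn, which encodes an antagonist of the IL-1 receptor (log2 fold change 0.75, adjusted p = 0.000270). Tnf, Il1a, Il1b, Lta and Ltb, the classical ligands, averaged under 0.1 CPM in every group. Hmgb1, a chromatin protein that acts as a ligand once released, fell by 1.34 with doxorubicin and by 1.03 with peroxide (adjusted p = 1.91e-07 and 1.45e-06).

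Of 30 textbook target genes 22 were tested. In 9 of the 22, Cfb, Icam1 and Cxcl10 among them, both vehicle means were under 1 CPM, so treated libraries let them through the filter, which favours a rise. The counts are therefore a description: 20 rose with doxorubicin and 0 fell (22.1% and 27.8% of all tested genes), and 13 rose and 1 fell with peroxide (27.3% and 23.4%). The median log2 fold change of the 22 was 1.60 with doxorubicin and 0.41 with peroxide, beside -0.03 and -0.01 over all tested genes. The difference of the effects was called higher in 16 genes and lower in 1, where 13.5% and 20.1% of all tested genes were called. These counts include the genes let through by treated libraries and are a description too. Cfb, complement factor B, had 42.4, 48.5 and 49.5 CPM with doxorubicin, against 0.296, 0.228 and 0.410 CPM in its vehicle. With peroxide Cfb had 7.49, 9.61 and 6.50 CPM, against 0, 0.143 and 0 CPM in its vehicle. Icam1, a leukocyte adhesion receptor, had 17.4, 16.5 and 18.3 CPM with doxorubicin, against 0.148, 0 and 0 CPM in its vehicle. Cxcl10, a T cell chemokine, had 40.7, 22.8 and 27.5 CPM with doxorubicin, against 0.592, 0.501 and 0.308 CPM in its vehicle. Several of these targets, Cxcl10 and Cfb among them, are also known to be induced by interferon, and the part of either route was not tested.

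**Figure D5:**
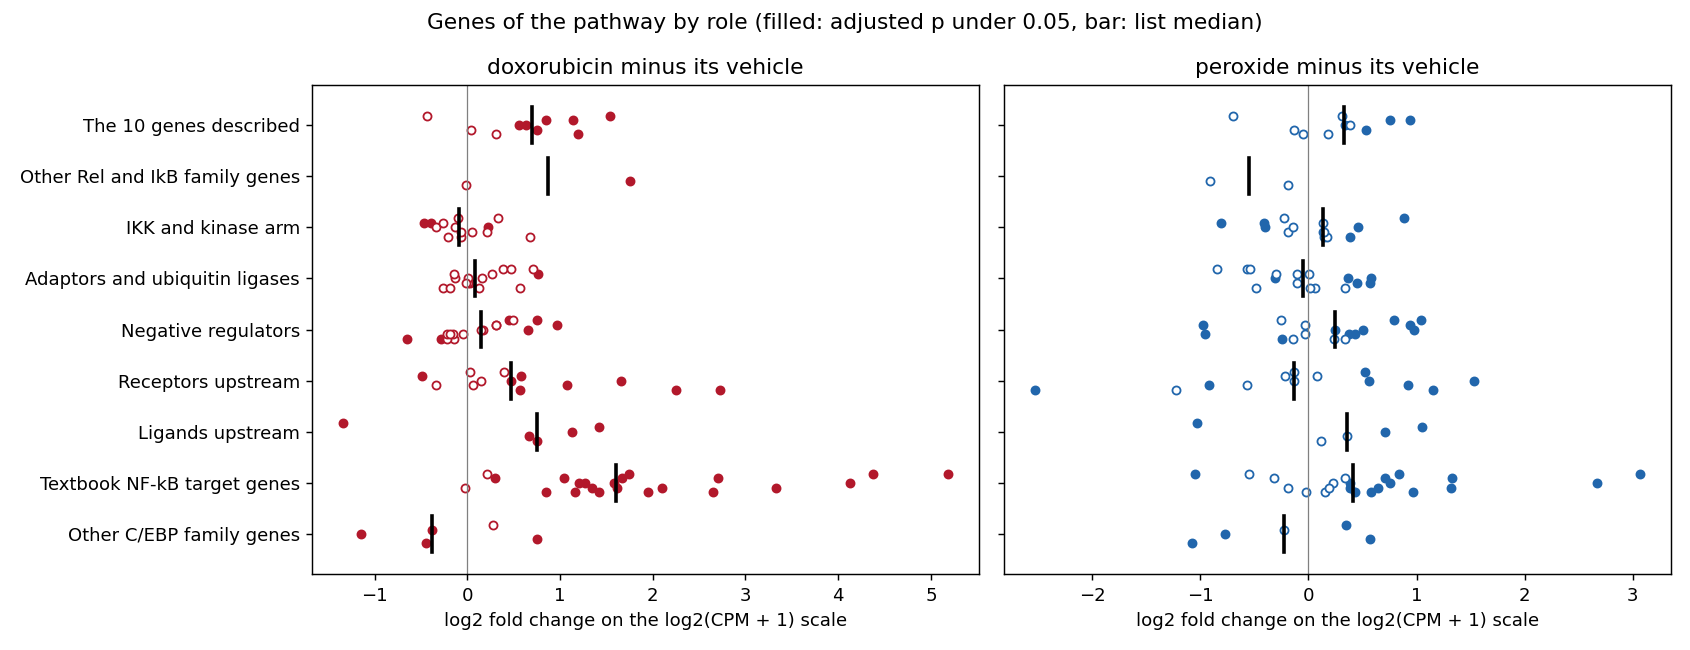
Log2 fold change on the log2(CPM + 1) scale of the tested genes of each pathway list, doxorubicin against its vehicle on the left and peroxide against its vehicle on the right. Filled points have an adjusted p under 0.05 and black bars are list medians, the highest being that of the target genes at 1.60 with doxorubicin.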

How the data were processed

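The deposited table gives CPM, made by the authors from total RNA libraries sequenced on a NovaSeq instrument, and its columns sum to 1e+06. The submitters' processing notes name bcl2fastq, DRAGEN and the mm10 build, while the counting method, strand setting and gene models behind the table are not given in its labels or headers. Of 55774 lines, 168 repeated identifiers had identical values and were kept once, leaving 55487 genes. Depth was estimated from the CPM of 1 read, and whole reads could not be recovered (within 0.001 read, 74.7 to 79.9% of low values, 20 reads or fewer, were whole), so count models were not used.

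A gene was tested if 3 or more of the 12 libraries held 1 CPM or more (13280 genes), on log2(CPM + 1), a scale that understates fold changes of low genes. The 4 groups shared 1 limma fit (version 3.58.1, R 4.3.3) with its mean-variance trend, 8 residual and 3.07 prior degrees of freedom. All tests are two-sided, with Benjamini-Hochberg adjustment over all tested genes and a threshold of 0.05. The model was also run on simulated reads, with the same setting of spread for all genes and no deviation shared within a library. Real libraries stood apart from their groups, so that run cannot speak for the calls given here. Gene positions and exon lengths came from GENCODE M21 on mm10, and promoter windows from RefSeq on GRCm38.p6. Figures used Python 3.11.15 with matplotlib 3.10.9.

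The 10 genes and the lists were chosen with earlier results of these data known. All 10 are named. Up to 3 called genes of largest change were selected from each list and treatment, and the 2 genes nearest in pattern to each gene. The search for near patterns left out the 10 genes and symbols that start with Gm and a digit or end with Rik. Not all of the selected genes are printed, and Il1rn and Cebpz are printed outside this rule. Alternatives covered pseudocounts, filters, scalings (TMM and median-of-ratios), variance models, separate fits, a replicate block, voom on estimated reads, and leaving out libraries. A correction for GC content was chosen after seeing the data.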

Additional observations from a re-analysis of the deposited data

Results flagged for a closer look

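The effects of the treatments differed by a test of the difference itself (doxorubicin minus its vehicle, less peroxide minus its vehicle, limma on log2(CPM + 1)) in 4 of the 10 genes. Nfkb2 differed by 0.89 (adjusted p = 0.00883), with all 3 doxorubicin libraries above their vehicle and the peroxide libraries overlapping theirs. Its vehicles also differed, by -0.52 for day 7 over day 6 (adjusted p = 0.0208). Between the treated groups its log2 difference was 0.37 and did not pass (adjusted p = 0.0810). Nfkbia differed by 2.24 (adjusted p = 0.0419), with a mean of 21.5 ± 17.7 CPM in doxorubicin cells against 5.14 ± 0.73 CPM in their vehicle, and 3.53 ± 0.19 CPM in peroxide cells against 7.23 ± 4.77 CPM in their vehicle (SD, n = 3 each). Nfkbiz differed by -0.50 (adjusted p = 0.0224), with 3 of 3 peroxide libraries above their vehicle and the doxorubicin libraries overlapping theirs. Cebpb differed by -0.75 (adjusted p = 0.0435), with 3 of 3 doxorubicin libraries below their vehicle. Its log2 difference was -0.29 between the treated groups (adjusted p = 0.239) and 0.46 between the vehicles, day 7 over day 6 (adjusted p = 0.0793). The calls of Nfkbia and Cebpb for the difference of the effects were each lost under 13 alternatives, and that of Nfkbiz under 3.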

How the results depend on the processing

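The number of the 10 genes called with doxorubicin was 6 to 9 when single libraries were left out, and with peroxide 3 to 5. A minimum of 5 CPM left 4 of the 10 genes in the test, and the number called was then 2 with doxorubicin, 2 with peroxide, 2 for the difference of the effects and 0 between the vehicles. For the difference of the effects it was 1 to 6 without single libraries, 2 with no filter and 2 with voom. For doxorubicin against peroxide it was 0 to 6 without single libraries, 1 with no filter, 5 with TMM scaling, 7 with array weights, 0 in separate fits and 5 without the 3 libraries that stand apart. Between the vehicles it was 0 to 2 without single libraries, 0 with no filter, 3 with array weights, and 2 with a pseudocount of 0.1, in separate fits or with the GC correction. The cause of these shifts was not tested, beyond the smaller number of genes in the 5 CPM filter. Median-of-ratios scaling moved the share of higher calls for the difference of the effects to 51.1%, against 40.3% in the chosen scaling, and for doxorubicin against peroxide to 49.5%, against 34.6%, which TMM scaling moved to 45.0%. For doxorubicin against its vehicle the share was 44.3% in the chosen scaling, 51.3% with median-of-ratios and 51.2% with TMM scaling. The shares of all tested genes that rose and fell with doxorubicin therefore depend on the scaling.

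The signs that turned round were those of values that had not passed the test. The Nfkbiz value with doxorubicin was -0.013 to 0.082 without single libraries. For Nfkbie with peroxide it was -0.33 to 0.19 without single libraries, 0.0096 with array weights and 0.19 without the 3 libraries. For the difference of the effects, Relb was -0.023 with a pseudocount of 0.1, -0.10 with voom, -0.073 with the GC correction and -0.080 to 0.30 without single libraries, and Rela was -0.059 with the GC correction. Bcl3 was -0.59 with a pseudocount of 0.1, -0.16 with array weights, -1.32 with voom and -0.11 with the GC correction. Between the vehicles, Nfkb1 was 0.0040 with TMM scaling, 0.015 without the 3 libraries, 0.010 with the GC correction and -0.075 to 0.059 without single libraries, while Nfkbia was -0.67 to 0.17 and Relb -0.019 to 0.36. Over the 10 genes, of 1188 values under alternatives, 1048 kept their direction and side of the threshold.

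Same-numbered libraries deviated with correlations of -0.31, 0.19 and -0.28 in the doxorubicin experiment and 0.14, 0.03 and -0.24 in the peroxide experiment. With 3 libraries per group these values cannot decide whether same-numbered libraries were paired. With a replicate block 7 genes were called with doxorubicin, 4 with peroxide and 1 for the difference of the effects, where Nfkbia, Nfkbiz and Cebpb lost their calls (adjusted p = 0.0520, 0.0752 and 0.0723). Low read numbers limit Bcl3, Nfkb2, Relb and Nfkbie, the lowest libraries holding 0, 11, 9 and 6 reads.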
